A study of Homo sapiens with 72 samples.

Results

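Genes of the osteoblast lineage, namely SPP1, SPARC, ALPL, RUNX2, MSX2, SP7, BMP2 and BMP4, were followed through U2OS osteosarcoma cells that lacked or carried the stress granule protein G3BP1. The members were picked by symbol, 8 of the 61541 Ensembl gene IDs listed in each of the 11 tables. SPP1 had drawn attention because its fold change in arsenite-treated knockout cells was among the lowest of well-expressed genes, and the other members were added as bone genes. Adjusted p-values for the members are therefore given as descriptions and not as independent evidence.

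Osteoblasts are the cells that build bone. They arise from mesenchymal precursors under bone morphogenetic proteins (BMPs), secreted ligands that signal through SMAD proteins to induce the transcription factors RUNX2, MSX2 and SP7 (osterix). Maturing osteoblasts then secrete a collagen matrix with SPARC (osteonectin) and SPP1 (osteopontin), and the phosphatase ALPL allows that matrix to mineralise. U2OS is a line from a human osteosarcoma, a bone tumour, labelled as epithelial in form.

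The series has 72 libraries, of which 24 in 11 groups stand behind the tables used here and 48 were not analysed here. U2OS RNA was sequenced in 2 experiments, each group having 2 libraries. The first compared untreated wild-type cells, untransfected cells with G3BP1 and its paralog G3BP2 knocked out, and knockout cells given a G3BP1 transgene (rescue). The second took untransfected knockout cells, a wild-type G3BP1 rescue and a rescue with a G3BP1 deletion mutant without NTF2, the domain through which G3BP1 pairs with itself, and left each untreated or exposed it to 200 uM sodium arsenite (2 h). Transfection was transient, with Lipofectamine, for 24 h. No mock-transfected group was used, so the effects of transfection and of G3BP1 cannot be told apart. An RNA immunoprecipitation (RIP) used a different line, FlpIn 293 Trex cells of embryonic kidney origin, with stable FLAG-tagged G3BP1 induced by 1 ug/mL tetracycline for 24 h, with 3 immunoprecipitated (IP) and 3 input libraries. Nothing in the labels says whether the 2 libraries of a group came from separate cultures, so p-values measure the spread between these libraries, which may be technical.

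SPP1 is shown as the gene chosen first, RUNX2 as the factor whose core motif was searched and SPARC as a promoter with none of the motifs. The 250 bases before the RefSeq start are printed for SPP1 (chr4:87975464-87975713, plus strand), the first RUNX2 start (chr6:45328080-45328329, plus strand) and SPARC (chr5:151686916-151687165, minus strand), all in GRCh38.p14 and 5′ to 3′. Capitals mark the RUNX core TGTGGT or its reverse complement ACCACA, and the AP-1 motif TGANTCA.
SPP1: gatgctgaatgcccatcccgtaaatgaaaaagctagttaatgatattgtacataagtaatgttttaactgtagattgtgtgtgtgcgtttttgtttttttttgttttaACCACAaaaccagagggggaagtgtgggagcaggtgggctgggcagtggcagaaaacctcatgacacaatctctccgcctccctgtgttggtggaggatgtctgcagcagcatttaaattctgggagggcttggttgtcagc
RUNX2: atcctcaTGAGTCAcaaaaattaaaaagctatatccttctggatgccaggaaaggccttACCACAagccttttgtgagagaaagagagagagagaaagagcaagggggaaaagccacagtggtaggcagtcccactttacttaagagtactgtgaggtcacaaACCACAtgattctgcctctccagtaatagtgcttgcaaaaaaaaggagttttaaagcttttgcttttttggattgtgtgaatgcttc
SPARC: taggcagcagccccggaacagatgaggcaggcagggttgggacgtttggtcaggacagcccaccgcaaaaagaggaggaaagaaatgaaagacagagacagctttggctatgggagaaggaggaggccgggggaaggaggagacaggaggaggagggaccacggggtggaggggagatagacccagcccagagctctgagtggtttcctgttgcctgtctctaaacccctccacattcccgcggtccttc

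Promoters of 6 of the 8 members were matched, with 11 starts between them, and BMP2 and SP7 were not. On both strands, the RUNX core occurred in 11% of the 35116 RefSeq promoters, the AP-1 motif in 6.57%, TATAAA in 10.7%, the homeodomain core TAATTA in 4.35% and CCAAT in 32.0%. The SPP1 promoter held 1 RUNX core, which began 142 bases before the start. The first RUNX2 promoter held 2, at 191 and 87 bases, and 1 AP-1 motif at 243 bases. BMP4 held 1 RUNX core in its second promoter, at 41 bases. In MSX2 there was 1 TAATTA, at 197 bases, and CCAAT at 117 and 70 bases. The second ALPL promoter held the TATA letters on the other strand, 29 bases before its start. None of the 5 motifs was found before SPARC, and the GC content was 59.2% there, 44.8% for SPP1 and 41.6% for RUNX2. A match is a run of letters and not a measured binding site.

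Whole reads per library were recovered from the deposited base means and are given as counts per 1e6 scaled by size factors (CPM). The size factors were computed by the authors' method, but over all libraries of an experiment instead of table by table. A CPM is therefore not a share of a library's own reads in genes. The first experiment had 38.6 to 52.5 M (1e6) reads in genes per library and the second 10.8 to 27.8 M. The 2 experiments were normalised separately, so tests of levels stay within an experiment, and levels set side by side across them carry that limit. Transcripts of the targeted genes were set beside the labels. G3BP1 was at 417 and 396 CPM in wild-type cells, 277 and 276 CPM in knockout cells and 440 and 446 CPM in the rescue of the first experiment, so its transcript was still counted in the knockout. In the second experiment G3BP1 was at 258 and 263 CPM in knockout cells and between 40000 and 66143 CPM in the 8 libraries of transfected cells. G3BP2 had means of 183 CPM in wild-type, 142 CPM in knockout and 169 CPM in rescued cells of the first experiment. In the second, its means were 113 CPM in untreated knockout, 118 CPM in treated knockout and 164 to 177 CPM in the transfected groups, although it was not transfected. Against knockout cells, the deposited fold changes of those transfected groups had a median of 0.17 to 0.22 at base means of at least 100, and scaling by library totals moved the median of all genes by between -0.23 and -0.26 in the same comparisons. For wild-type rescue against knockout, limma (a linear model of the recovered reads) called 5887 genes higher and 5527 lower, but 4174 and 7386 with library totals. Levels below are on the size-factor scale of their experiment, and deposited fold changes on that of their own table.

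Bone genes were present only in part. SP7, the factor that commits cells to the osteoblast fate, had 0 to 3 reads in each of the 18 U2OS libraries, and no table gave it an adjusted p. COL1A1, a chain of type I collagen, reached a mean of 3405 CPM in wild-type cells, whereas its partner chain COL1A2 stayed under 1 CPM in every group, with a highest mean of 0.86 CPM. IBSP, bone sialoprotein, did not exceed 0.107 CPM and BGLAP, osteocalcin, did not exceed 0.708 CPM. Of the bone lists, 9 of 19 matrix genes, 6 of 8 mineralisation genes and 2 of 6 osteocyte markers reached 1 CPM in a group. So did 15 of 19 further osteoblast transcription factors, 17 of 19 BMP ligands, receptors and SMADs and 9 of 12 BMP antagonists. Of the markers of other cells, 3 of 8 adipocyte, 1 of 6 muscle, 2 of 6 macrophage, 7 of 10 chondrocyte and 5 of 7 epithelial genes reached 1 CPM in a group.

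Loss of G3BP1 and G3BP2 went with far more SPP1 and ALPL and less RUNX2, MSX2 and BMP4 transcript. This first comparison asks what the knockout changes in unstressed cells. All 7 members that the authors tested were called at an adjusted p under 0.05, 3 higher and 4 lower, where 37.8% of all tested genes were called. In RNA from many cells, fewer cells making a transcript and less of it per cell cannot be told apart.

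SPP1, a secreted phosphoprotein that binds integrins and CD44, stood at 3.22 and 2.86 CPM in wild-type cells, at 53.2 and 47.5 CPM in knockout cells and at 77.3 and 72.2 CPM in rescued cells. All 3 groups were separate, and the rescue lay above the knockout instead of between it and wild type. Knockout over wild type was 16.6-fold by group means, 3.96 on the log2 scale in the authors' deposited table (SE 0.13, adjusted p 2.36e-201). For knockout against rescue the authors' deposited table had SPP1 lower in knockout cells, at -0.57 (SE 0.07, adjusted p 2.05e-13), and wild type against rescue gave -4.46 (SE 0.11).

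ALPL, the enzyme that splits pyrophosphate and so lets mineral form, was measured at 1.40 and 1.13 CPM in wild-type, 16.3 and 16.0 CPM in knockout and 7.28 and 6.28 CPM in rescued cells. Unlike SPP1, it came down part of the way with rescue, and the groups did not overlap. The authors' deposited table put knockout over wild type at 3.49 (SE 0.19, adjusted p 8.08e-71), 12.8-fold by group means, and knockout over rescue at 1.18 (SE 0.14, adjusted p 1.77e-16). The median over all genes tested for knockout against wild type was 0.01 on the same scale.

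The transcription factors went the other way. RUNX2, the master regulator of the lineage, had 30.2 and 29.9 CPM in wild-type, 11.2 and 11.7 CPM in knockout and 20.1 and 19.9 CPM in rescued cells. Its libraries were nearly equal within each group, and rescue brought it part of the way back. Knockout against wild type was -1.38 in the authors' deposited table (SE 0.11, adjusted p 8.29e-34). MSX2, a homeobox factor induced by BMPs, had 7.18 and 7.55 CPM in wild type, 2.70 and 2.58 CPM in the knockout and 6.64 and 5.48 CPM after rescue. Rescued libraries stood below both wild-type ones, yet for wild type against rescue the authors' deposited table did not call MSX2, at 0.24 (SE 0.17, adjusted p 0.31), and limma did, at 0.29 (SE 0.12, adjusted p 0.0475), where limma called 61.6% of genes. That limma call was lost without either wild-type library (adjusted p 0.0688 without the deeper and 0.167 without the shallower) and without the rescue library at 5.48 CPM (0.14, adjusted p 0.413). Knockout against wild type was -1.40 for MSX2 in the authors' deposited table (SE 0.21, adjusted p 1.14e-10).

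Of the ligands, BMP4 carried the larger change. BMP4 had 138 and 131 CPM in wild-type cells, 26.9 and 21.2 CPM in knockout cells and 87.3 and 96.4 CPM in rescued cells. Wild-type cells were highest, and the rescue regained most of the level. For BMP4 the authors' deposited table gave -2.40 for knockout against wild type (SE 0.17, adjusted p 6.81e-45) and -1.80 for knockout against rescue (SE 0.17, adjusted p 7.6e-25). BMP2, the ligand used clinically to induce bone, had 6.42 and 5.04 CPM in wild type, 10.3 and 10.9 CPM in the knockout and 11 and 9.0 CPM after rescue. Knockout and rescue overlapped, and both lay above wild type. BMP2 was 0.85 in the authors' deposited table of knockout against wild type (SE 0.17, adjusted p 5.46e-06) and 0.07 in that of knockout against rescue (adjusted p 0.762).

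SPARC, a calcium- and collagen-binding matrix protein, was abundant throughout, at 1614 and 1588 CPM in wild-type, 1506 and 1398 CPM in knockout and 1044 and 1034 CPM in rescued cells. The rescue was the lowest group, below both parental states. Knockout against wild type was a small -0.14 in the authors' deposited table (SE 0.05, adjusted p 0.00675). That call rested on 1 knockout library: without the shallower one, limma on recovered reads gave -0.08 (adjusted p 0.206). Knockout against rescue was 0.47 for SPARC in the authors' deposited table (SE 0.04, adjusted p 2.27e-27). Over the 7 tested members, 6 were called between knockout and rescue, 2 higher and 4 lower in the knockout, where 37.6% of genes were called. Another 6 were called between wild type and rescue, 3 in each direction, where 35.6% of genes were called. Rescue thus placed ALPL, RUNX2, MSX2 and BMP4 between knockout and wild type, while the means of SPP1 and SPARC lay outside that range and BMP2 overlapped the knockout.

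**Figure D1:**
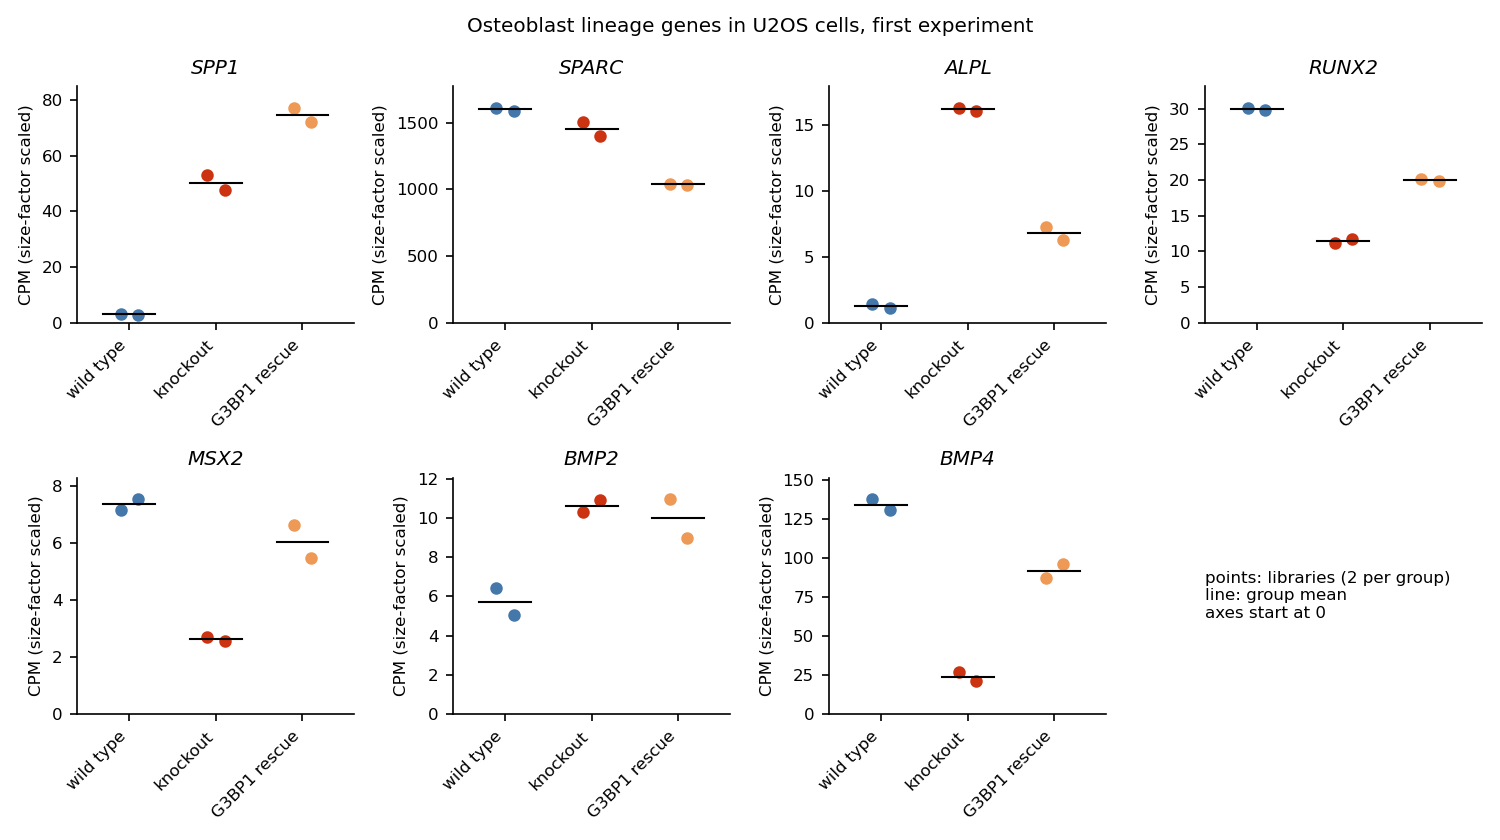
Points are the 2 libraries of each group of the first experiment, in CPM on the size-factor scale of that experiment with axes from 0, and lines are group means. SPP1 and ALPL are near the floor of the axis in wild-type cells, RUNX2, MSX2 and BMP4 are lowest in knockout cells, and SPARC is lowest after rescue.

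The surrounding pathway moved in both directions in the knockout, where 37.8% of all genes were called and no test set a list apart from them. Of 12 tested bone matrix genes 3 rose and 5 fell, with a median of -0.37. In the authors' deposited table FN1, fibronectin, fell by 2.75 and COL1A1 fell by 2.73 on the log2 scale, while PCOLCE, a helper of collagen processing, rose by 0.49. Of 16 further osteoblast transcription factors 2 rose and 6 fell. GLI1, an effector of hedgehog signalling, was at 1.30 and ATF4, a stress-responsive factor that osteoblasts need, was at -0.64 in the authors' deposited table. Among 18 BMP ligands, receptors and SMADs 6 rose and 5 fell, and among 12 BMP antagonists and SMAD-degrading factors 2 rose and 5 fell. NOG, the secreted antagonist noggin, fell by 2.58 in the authors' deposited table, and FSTL1 rose by 1.60. Of 8 receptors that can bind osteopontin, 2 rose and 5 fell. CD44 fell by 1.82 and ITGA4 fell by 1.75 on the log2 scale in the authors' deposited table, and ITGA5 rose by 0.65. ITGAM, from the macrophage list, had a mean of 0.46 CPM in wild-type and 32.2 CPM in knockout cells. The sum of that list was 2.05 CPM in wild-type, 33.6 CPM in knockout and 12.5 CPM in rescued cells. Most of it in knockout and rescued cells was ITGAM, at 9.90 CPM after rescue. From wild type to knockout CSF1R also rose, from 0.225 to 1.13 CPM. PTPRC fell from 0.921 to 0.0351 CPM and CD14 from 0.336 to 0.304 CPM, and CD68 and LYZ stayed under 0.1 CPM and fell. The part of ITGAM in the member changes was not tested.

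Transfection of wild-type G3BP1 into knockout cells gave different results in the second experiment. Untransfected knockout cells were sequenced in both experiments. With each normalised on its own, the ratio of the second to the first was 0.979 for SPP1, 1.05 for SPARC, 0.939 for ALPL, 1.12 for RUNX2, 1.09 for BMP2, 1.28 for BMP4 and 0.778 for MSX2. Of the 7 tested members, 5 were called between the rescue and the knockout, 2 higher and 3 lower, where 42.1% of genes were called.

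BMP4 fell from 28.5 and 33.0 CPM in knockout cells to 5.96 and 5.83 CPM with wild-type G3BP1 and 5.14 and 5.43 CPM with the NTF2 deletion. Both transfected groups lay far below the knockout, the opposite of the first experiment. The authors' deposited table gave -2.29 for the wild-type rescue (SE 0.21, adjusted p 5.07e-26) and that of the deletion gave -2.44 (SE 0.21, adjusted p 5.55e-29). RUNX2 stood at 13.7 and 11.9 CPM in the knockout, 5.37 and 4.85 CPM in the wild-type rescue and 4.80 and 5.57 CPM in the deletion rescue. Here too transfected cells lay below the knockout, where they had lain above it in the first experiment, at -1.24 and -1.22 in the authors' deposited tables (SE 0.27 for each, adjusted p 2.6e-05 and 2.83e-05).

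ALPL rose where it had fallen, from 15.4 and 14.9 CPM to 22.9 and 21.4 CPM with wild-type G3BP1 and to 26.1 and 26.7 CPM with the deletion. The authors' deposited tables gave 0.55 (SE 0.19, adjusted p 0.0103) and 0.80 (SE 0.18, adjusted p 3.69e-05), and the first was not called once the table was centred on its median (0.38, adjusted p 0.0831). BMP2 went from 11.2 and 11.9 CPM to 33.2 and 34.2 CPM with wild-type G3BP1 and to 26.4 and 27.1 CPM with the deletion. No transfected library overlapped the knockout, and the authors' deposited tables gave 1.53 (SE 0.18, adjusted p 2.17e-16) and 1.20 (SE 0.19, adjusted p 1.67e-09).

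SPARC was at 1553 and 1508 CPM in knockout cells, 652 and 653 CPM in the wild-type rescue and 676 and 654 CPM in the deletion rescue. It fell in this experiment as in the first, but further, by 1.21 (SE 0.04) and 1.18 (SE 0.05) on the log2 scale in the authors' deposited tables. MSX2, with 1.77 and 2.34 CPM in the knockout and 2.79 and 2.12 CPM in the wild-type rescue, overlapped, and with 3.02 and 2.75 CPM in the deletion rescue it lay above the knockout, but neither change was called. For the deletion rescue 6 of 7 members were called, 2 higher and 4 lower, where 41.5% of genes were called. SPP1 was among the lower ones, and its comparison shares the untreated knockout libraries by which it was chosen.

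The difference between experiments was tested on the deposited fold changes of rescue over knockout, the second minus the first. It was called for 6 of 7 members, where 37.3% of all genes were called. That count includes SPP1, whose second-experiment value shares the untreated knockout libraries by which it was chosen, so its call lends no support. BMP4 differed by -4.09 (SE 0.27, adjusted p 3.75e-49) and RUNX2 by -2.03 (SE 0.30, adjusted p 1.16e-10). For SPP1 the difference was -0.87 (SE 0.15), given with no test. ALPL differed by 1.74 (SE 0.24, adjusted p 2.88e-12) and BMP2 by 1.60 (SE 0.23, adjusted p 8.17e-11). SPARC differed by -0.74 (SE 0.06, adjusted p 4.77e-34), and MSX2 was at -0.84 (SE 0.51, adjusted p 0.195). G3BP1 moved with this split, since rescued cells had a mean of 443 CPM in the first experiment and 41034 CPM in the second, each on its own scale. Its part in the difference was not tested, and experiment and G3BP1 level cannot be told apart.

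**Figure D2:**
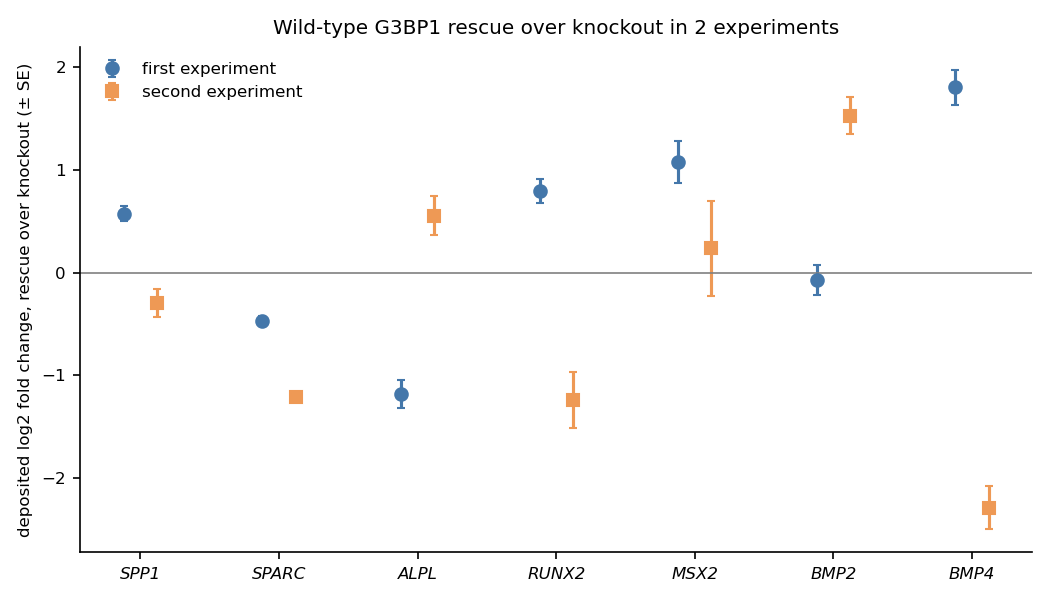
Points are log2 fold changes of wild-type G3BP1 rescue over knockout from the authors' deposited tables, with bars of 1 SE, circles for the first experiment (sign turned to put rescue first) and squares for the second. BMP4, RUNX2 and ALPL lie on opposite sides of 0 in the 2 experiments.

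SPP1 was also followed through both rescues, whose comparisons with the knockout share the untreated knockout libraries of the comparison by which it was chosen. Its adjusted p-values against the knockout are therefore descriptions and lend no support. SPP1 had 51.9 and 46.7 CPM in knockout cells, 37.3 and 41.7 CPM with wild-type G3BP1 and 28.8 and 25.4 CPM with the NTF2 deletion. The 3 groups did not overlap, with the deletion lowest. In the authors' deposited table the wild-type rescue was at -0.30 and was not called (SE 0.13, adjusted p 0.0601), and in limma on recovered reads it was called, at -0.32 (SE 0.08, adjusted p 0.000655), where limma called 66.8% of genes. For the deletion rescue SPP1 was at -0.83 in the authors' deposited table (SE 0.14, adjusted p 4.64e-08). The difference of those deposited fold changes was 0.53 (SE 0.20) and was not called after adjustment (adjusted p 1), with 0 of 7 members and 0.0185% of genes called. That test counts the noise of the shared knockout libraries in both terms. The direct limma contrast of wild-type rescue against deletion rescue gave 0.54 for SPP1 (SE 0.09, adjusted p 0.000376), the only member called there, where 1.05% of genes were called. Without the shallower wild-type rescue library it was 0.46 (adjusted p 0.0748). BMP2 was at 0.33 in the same limma contrast (SE 0.10, adjusted p 0.0804).

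The same lists were counted for wild-type G3BP1 against knockout, where 42.1% of all genes were called and no test set a list apart from them. Of 10 bone matrix genes 1 rose and 7 fell, with a median of -1.28 against -0.03 over all genes. COL5A1, a fibril collagen chain, fell by 2.35 and PCOLCE fell by 1.66 on the log2 scale in the authors' deposited table. Of 6 mineralisation genes 4 rose and 1 fell: the phosphate transporter SLC20A1 was at 1.45, the pyrophosphate exporter ANKH at 1.04 and ENPP1, which makes pyrophosphate, at -1.22 in the authors' deposited table. Of 15 transcription factors 9 rose and 3 fell, led by FOSL1, an AP-1 subunit, at 3.49 in the authors' deposited table. Of 17 BMP ligands, receptors and SMADs 2 rose and 8 fell. SMAD6, an inhibitory SMAD, was at -2.64 and the receptor BMPR2 at -1.71 in the authors' deposited table. Among 9 antagonists 3 rose and 5 fell. Among 8 osteopontin receptors 4 rose and 1 fell, with CD44 at 3.36 and ITGAV at -1.10 in the authors' deposited table. CD44 and NOG, like BMP4 and RUNX2, were lower in the knockout of the first experiment. In the second, CD44 and NOG were higher after transfection (NOG at 0.98 in the authors' deposited table), unlike BMP4 and RUNX2. In the first, means rose from knockout to rescue for CD44 (100 to 283 CPM) and NOG (22.7 to 54.4 CPM), as for BMP4 and RUNX2.

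Arsenite, which makes cells form stress granules and halts most translation, went with less SPARC in all 3 backgrounds and less SPP1 in 2 of them. This comparison asks how the stress response depends on G3BP1. In knockout cells 3 of 7 members were called, all lower and 1 of them SPP1, chosen by this value, where 19.4% of genes were called, 10.9% as lower. With wild-type G3BP1 2 of 7 were called, both lower, where 20.4% of genes were called, 12.2% as lower. With the deletion 1 of 6 was called, as lower, where 8.57% of genes were called, 6.14% as lower.

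SPP1 went from 51.9 and 46.7 CPM to 19.6 and 20.2 CPM in knockout cells. With wild-type G3BP1 it went from 37.3 and 41.7 CPM to 22.8 and 23.8 CPM, and with the deletion from 28.8 and 25.4 CPM to 26.6 and 26.0 CPM. Treated libraries lay below all untreated ones in the first 2 backgrounds and among them in the deletion rescue. The authors' deposited tables gave -1.22 (SE 0.14) in the knockout, the value by which SPP1 was chosen and so given with no test. They gave -0.73 with wild-type G3BP1 (SE 0.10, adjusted p 2.28e-12) and -0.03 with the deletion (SE 0.12, adjusted p 0.961). After arsenite the 3 backgrounds spanned a narrow range, from 19.6 to 26.6 CPM, with untreated cells between 25.4 and 51.9 CPM.

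The response itself was compared between backgrounds. Since SPP1 was chosen by its response in the knockout, its differences from that response are given with no test: 1.19 for the deletion rescue (SE 0.18) and 0.50 for the wild-type rescue (SE 0.17) on the deposited values. Wild-type and deletion rescue, which share no library, differed by -0.69 (SE 0.15, adjusted p 0.00347). SPP1 was the only member called there, where 0.328% of genes were called. In limma the same difference was -0.73 (SE 0.13, adjusted p 0.00317), where 0.123% of genes were called. It was not called without the shallower wild-type rescue library (-0.64, adjusted p 0.0988), the deeper arsenite-treated wild-type rescue library (-0.69, adjusted p 0.068), the shallower deletion rescue library (-0.64, adjusted p 0.103) or the deeper arsenite-treated deletion rescue library (-0.71, adjusted p 0.0649). Apart from SPP1, SPARC was the 1 member whose response differed from that of the knockout on the deposited values, with the wild-type rescue, where 4.51% of genes were called, and with the deletion, where 7.12% were. In limma, deletion rescue minus knockout was also called for ALPL (0.64, SE 0.17, adjusted p 0.0076) and BMP4 (0.89, SE 0.22, adjusted p 0.00397). There 2316 of 17087 genes were called. On the deposited values these were 0.57 (adjusted p 0.161) and 0.50 (adjusted p 0.167). Wild-type rescue minus knockout was 0.62 for BMP4 in limma (SE 0.21, adjusted p 0.04996), where 10.7% of genes were called. The smaller SPP1 response with the deletion went with a lower starting level, and whether that level sets the response was not tested.

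SPARC fell in every background: from 1553 and 1508 to 801 and 820 CPM in knockout cells, from 652 and 653 to 411 and 405 CPM with wild-type G3BP1 and from 676 and 654 to 464 and 468 CPM with the deletion. No treated library reached its untreated group. Its changes in the authors' deposited tables were -0.90 (SE 0.05, adjusted p 6.61e-59), -0.69 (SE 0.03, adjusted p 1.34e-88) and -0.50 (SE 0.04, adjusted p 1.97e-31). SPARC responded most in the knockout, by 0.21 more than in the wild-type rescue (SE 0.06, adjusted p 0.0303) and 0.40 more than in the deletion rescue (SE 0.07, adjusted p 4.73e-07). The first of these was not called once each table was centred on its median (0.19, adjusted p 0.0702).

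ALPL fell in knockout cells, from 15.4 and 14.9 CPM to 8.90 and 8.52 CPM, by 0.69 on the log2 scale in the authors' deposited table (SE 0.21, adjusted p 0.007). In the rescues it was at 19.5 and 21.5 CPM with wild-type G3BP1 and 22.8 and 24.5 CPM with the deletion after arsenite, and neither change was called. The difference of the ALPL responses between wild-type rescue and knockout was 0.57 on the deposited values (SE 0.24, adjusted p 0.203) and 0.67 in limma (SE 0.17, adjusted p 0.00681), where 10.7% of genes were called.

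The other members did not pass the authors' test with arsenite. RUNX2 had 17.9 and 16.4 CPM in treated against 13.7 and 11.9 CPM in untreated knockout cells, and MSX2 had 4.80 and 3.76 CPM against 1.77 and 2.34 CPM. Both pairs of groups were separate. The authors' deposited table gave 0.39 for RUNX2 (adjusted p 0.165) and 0.70 for MSX2 (adjusted p 0.0915), while limma called both, at 0.42 (SE 0.13, adjusted p 0.0118) and 1.06 (SE 0.29, adjusted p 0.00343), where limma called 34.3% of genes. The RUNX2 call was lost without the shallower untreated library (0.32, adjusted p 0.133) or the deeper treated one (0.35, adjusted p 0.0868), and the MSX2 call without the deeper untreated library (0.85, adjusted p 0.0807). BMP2 and BMP4 overlapped between treated and untreated knockout cells. BMP4 rose in limma with the deletion, by 0.69 (SE 0.20, adjusted p 0.013), where the authors' deposited table had 0.33 (adjusted p 0.135) and limma called 12.6% of genes. That call was lost without either untreated library (adjusted p 0.128 without the deeper and 0.0657 without the shallower) and without the shallower treated one (0.59, adjusted p 0.14).

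**Figure D3:**
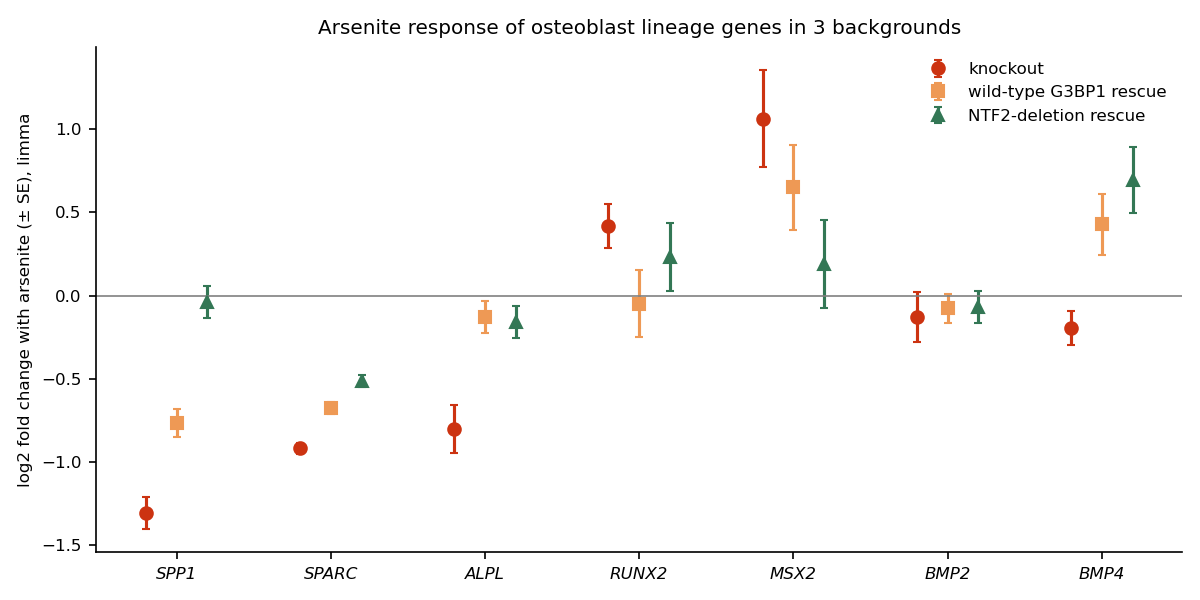
Points are log2 fold changes of arsenite-treated over untreated cells from limma on recovered reads, with bars of 1 SE, for knockout cells (circles), wild-type G3BP1 rescue (squares) and NTF2-deletion rescue (triangles). SPP1 runs from -1.31 in the knockout to -0.04 with the deletion, and SPARC is below 0 in all 3.

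Other genes of the bone lists moved both ways with arsenite in knockout cells, where 19.4% of all genes were called, 10.9% as lower, and no test set a list apart from them. Of 9 bone matrix genes 0 rose and 3 fell, among them LOX, the collagen cross-linking oxidase, at -0.68 and PCOLCE at -0.63 in the authors' deposited table. Of 15 transcription factors 5 rose and 0 fell. FOSL1 was at 2.99 and FOSL2 at 0.91 in the authors' deposited table. Of 16 BMP ligands, receptors and SMADs 1 rose, SMAD7 at 0.52 in the authors' deposited table, and 5 fell, with BMPR1B at -0.70. Of 9 antagonists 1 rose and 3 fell, and FSTL1 was at -0.96 in the authors' deposited table. Of 8 osteopontin receptors 0 rose and 5 fell, with ITGB5 at -0.87 and CD44 at -0.67 in the authors' deposited table.

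Across the second experiment each member had its own order of groups. SPP1 was highest in untreated knockout cells, with a mean of 49.3 CPM (SD 3.62, n = 2), followed by wild-type rescue at 39.5 CPM (SD 3.14), deletion rescue at 27.1 CPM (SD 2.39), treated deletion rescue at 26.3 CPM (SD 0.432), treated wild-type rescue at 23.3 CPM (SD 0.721) and treated knockout at 19.9 CPM (SD 0.426). Only the deletion rescue with and without arsenite overlapped among neighbours. SPARC shared the top place of the knockout, at 1530 CPM, and was lowest in the treated wild-type rescue, at 408 CPM. ALPL was lowest in treated knockout cells, at 8.71 CPM, and highest in the deletion rescue, at 26.4 CPM. RUNX2 means were 17.2 CPM in treated and 12.8 CPM in untreated knockout cells, and the 4 transfected groups, from 4.95 to 6.17 CPM, overlapped their neighbours. BMP2 showed the reverse, with 11.6 and 10.6 CPM in the knockout groups and 25.6 to 33.7 CPM in the transfected ones. BMP4 means were 30.7 and 26.9 CPM in the knockout groups and 5.28 to 8.58 CPM in the others. MSX2 ran from 2.05 CPM in knockout cells to 4.28 CPM in treated knockout cells. With 2 libraries against 2, the smallest exact two-sided permutation p is 0.3333, so separation of single groups cannot pass a threshold of 0.05 in that test.

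**Figure D4:**
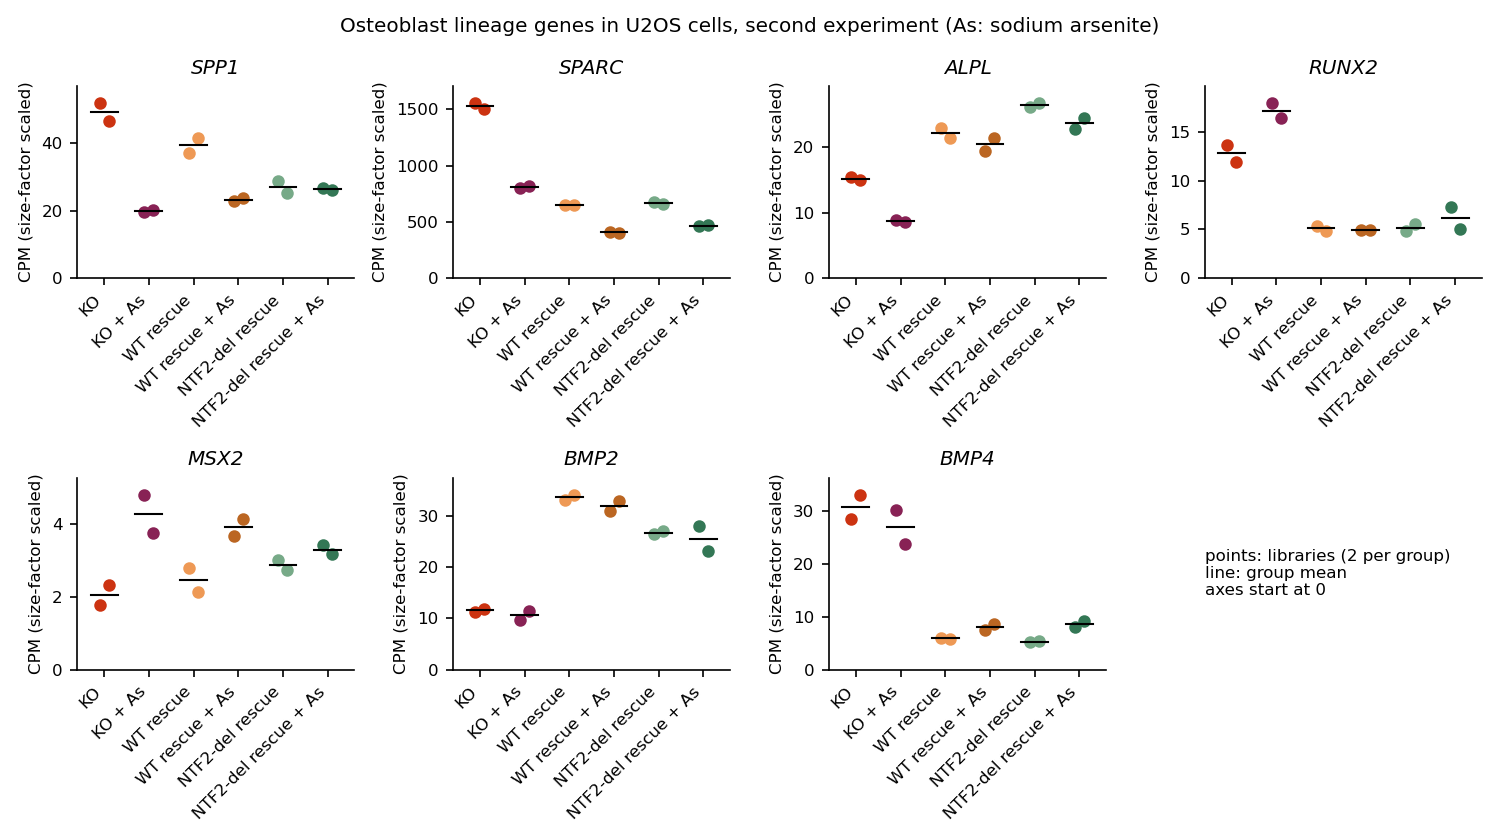
Points are the 2 libraries of each group of the second experiment (KO, knockout; As, arsenite; NTF2-del, G3BP1 without its NTF2 domain), in CPM on the size-factor scale of that experiment with axes from 0, and lines are group means. SPP1 and SPARC are highest in untreated knockout cells, and BMP2 and BMP4 separate knockout from transfected groups in opposite directions.

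Treated cells of the 3 backgrounds were also set side by side with limma. SPARC was lower with wild-type G3BP1 than with the deletion, at -0.19 (SE 0.04, adjusted p 0.00128), and BMP2 was higher, at 0.32 (SE 0.09, adjusted p 0.0304), 2 of 7 members where 3.1% of genes were called. Neither call held without the shallower treated deletion rescue library, with adjusted p-values of 0.062 for SPARC and 0.522 for BMP2, and that of BMP2 was also lost without either treated wild-type rescue library (adjusted p 0.102 without the deeper and 0.194 without the shallower). SPP1 was at -0.18 in that contrast (adjusted p 0.308). Treated knockout cells are the libraries by which SPP1 was chosen, so its values against them carry no test. It was 0.40 higher with the deletion (SE 0.10), or 0.16 when scaled by library totals. With wild-type G3BP1 it was 0.22 (SE 0.10), and the sign turned, to -0.01, when scaled by library totals. Set against untreated knockout cells, the authors' deposited tables called 6 of 7 members in treated wild-type rescue, where 44.9% of genes were called, and 6 of 7 in treated deletion rescue, where 43% were. SPP1 was at -1.01 and -0.86, SPARC at -1.84 and -1.68 and BMP4 at -1.84 and -1.76 in those authors' deposited tables, which share the knockout libraries. Both counts include SPP1, which was chosen through those knockout libraries, so its calls there lend no support.

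The genes most like SPP1 over the 6 group means of the second experiment, on the log2 scale and among 2907 genes, were DHRS7 (Pearson r 0.960), TMX4 (0.957), GGH (0.942), PIGK (0.942) and GOLM1 (0.939). DHRS7, an oxidoreductase, had a mean of 51.2 CPM in untreated and 24.2 CPM in treated knockout cells, 40.0 and 28.3 CPM with wild-type G3BP1 and 35.0 and 27.2 CPM with the deletion. Of the members that entered this comparison SPARC had r 0.631, ALPL 0.235, BMP4 0.122 and BMP2 -0.05. These values describe 6 points that share their libraries within a group.

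In the RIP from FlpIn 293 Trex cells most members were more frequent in the G3BP1 immunoprecipitate than in the input. Of 7 tested members 5 were higher and 1 lower in the authors' deposited table, where 24.7% of genes were higher and 31.4% lower, 56.1% in all. These cells are not bone cells, and several members were barely present. SPP1 had 4, 8 and 3 reads in the IP libraries and 0, 0 and 1 in the inputs, so its 2.27 in the authors' deposited table (SE 0.98, adjusted p 0.038) rests on very few reads. ALPL had 40, 24 and 33 IP reads and 8, 13 and 5 input reads, and SPARC had 48, 43 and 49 against 15, 11 and 23. For both, every IP library exceeded every input library, and the authors' deposited table gave 1.81 for ALPL (SE 0.49, adjusted p 0.000628) and 1.44 for SPARC (SE 0.42, adjusted p 0.0015). BMP2, with 22, 18 and 12 IP reads against 14, 23 and 17, overlapped and was at -0.08 in the authors' deposited table (adjusted p 0.894).

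The better-covered members split. BMP4 was at 1.91 (SE 0.27, adjusted p 6.41e-12, base mean 82.9) and MSX2 at 0.75 (SE 0.16, adjusted p 1.26e-05, base mean 343) in the authors' deposited table. RUNX2 was the member lower in the IP, at -1.13 in the authors' deposited table (SE 0.30, adjusted p 0.000508, base mean 69.0). Among list genes, ATF4 was at 1.78 and BAMBI, a BMP pseudoreceptor, at 1.07 in the authors' deposited table, while ACVR2B was at -2.98 and FN1 at -3.19.

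**Figure D5:**
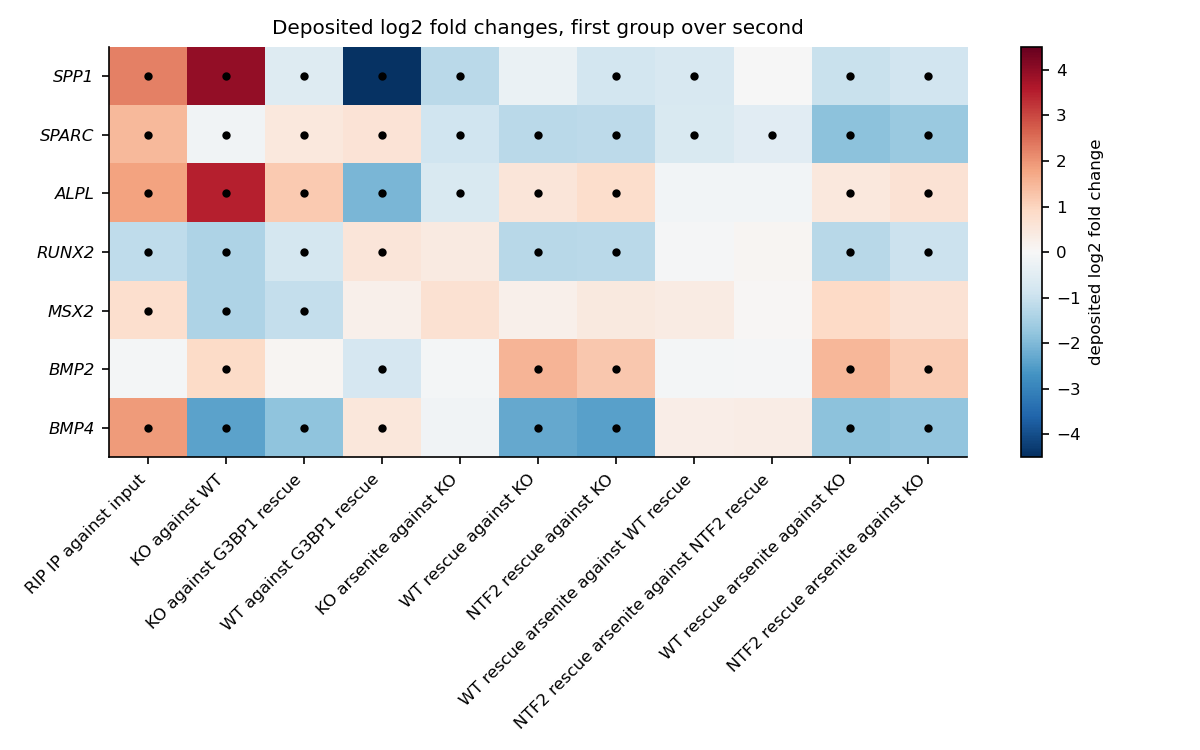
Colours give the log2 fold change in the authors' deposited tables, the group named first over the second, for 7 members and 11 comparisons (NTF2 rescue, G3BP1 without its NTF2 domain), and dots mark an adjusted p under 0.05. SPP1 is at 3.96 in knockout against wild type and below 0 in each comparison of the second experiment, and SPARC is marked in all 11.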

How the data were processed

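Poly-A RNA was extracted with TRIzol and made into NEBNext Ultra II Directional libraries, per the labels. Whether counting used the strand is not given in the sources used here, nor are the annotation and the build. The submitters' processing notes name STAR 2.7.0f for the first experiment and RIP, list STAR with 1.5.3 for the second, and name DESeq2 2.11.40.6. The files are 11 tables of the authors' own comparisons. Base means, as deposited, are a signal: normalised reads averaged across the libraries of a table. Log2 fold changes, as deposited, had been shrunk by a normal prior of width 0.278 to 2.06, so tables differ in shrinkage. The deposited Wald statistic is a score, from which the deposited p-value and adjusted p-value come. 4 summary lines per table were removed.

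Whole reads of all 18 U2OS libraries were recovered from the base means: 100% of genes with a base mean above 0 were given by whole reads within a relative tolerance of 3e-14, and the reads of the knockout libraries were equal in 29703 of 29703 genes recovered from both sets of tables. The recovered libraries carry no replicate numbers. limma 3.58.1 (voom, R 4.3.3) was fitted per experiment to genes with at least 1 CPM in 2 libraries, after the tables had been seen, in place of a count test. Differences of deposited fold changes were divided by their summed error and tested two-sided against a normal distribution. Both used the Benjamini-Hochberg method over all genes. On simulated data limma recovered 88% of 1.5-fold changes for arsenite in knockout cells and 51% for the difference of arsenite responses between wild-type rescue and knockout (16411 genes each), and the difference test recovered 89.5% of changes of 1 on the log2 scale (15648 genes).

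The members and lists were chosen with earlier results of these data known. All members were named in every table. Fold changes of list genes were given for some, and not all, of the 2 highest and 2 lowest called ones at base means of at least 100. Not every list was described for every comparison. The 5 genes most like SPP1 were named by correlation of log2 group means. BGN, at 0 reads in wild-type cells, is left out because its fold is not bounded. Alternatives were a threshold of 0.01, adjustment over base means of at least 10, centring, limma, library totals, no filter and leaving out each library.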

Additional observations from a re-analysis of the deposited data

Results flagged for a closer look

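The arsenite response of SPP1 differed between the 2 rescues in a test of the difference, by -0.69 on the log2 scale, wild-type minus deletion. Its call was lost in limma on leaving out any of 4 libraries. The fall of SPARC with arsenite was smaller than in the knockout by 0.21 in the wild-type rescue and by 0.40 in the deletion rescue. The first of these was not called once each table was centred on its median.

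The effect of G3BP1 transfection on knockout cells differed between the experiments for 6 members, as the second minus the first. It was -0.87 for SPP1, -2.03 for RUNX2, 1.74 for ALPL, -0.74 for SPARC, 1.60 for BMP2 and -4.09 for BMP4. SPP1 was chosen through the untreated knockout libraries of the second experiment, so its call here lends no support.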

How the results depend on the processing

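Counts of called members were grouped with the SPP1 log2 ratios of group means on leaving out each library. Of these values under alternatives, 191 were counted as the same and 41 were not. A count was the same if it stayed within 1.5 times the one reported, and the ratios were judged by the size of their shift. Of the other values of single members, 1103 were counted as the same, 83 became called and 25 were no longer called. Among values called in either setting, 1 changed sign: SPP1 in treated wild-type rescue against treated knockout, at -0.012 with library totals. Values called in neither setting were counted as the same even where their sign changed. The causes were not tested. Library totals and no filter were tried within limma, so against a deposited count they change 2 choices at once. Members called with arsenite in knockout cells were 3 in the deposited table and 5 in limma, 5 also with library totals; in the deletion rescue they were 1, 2 and 2. Members differing in response between wild-type rescue and knockout went from 1 to 0 with each table centred on its median; limma gave 4, and within limma 3 with library totals and 3 with no filter. Between deletion rescue and knockout they were 2 on the deposited values, where 7.12% of genes were called, and 4 in limma, with library totals too. Counts for arsenite in knockout cells and for differences from that response include SPP1 where it was called, also on leaving out a library. SPP1 was chosen by that response, so its calls there lend no support. Between the rescues, members differing in response were 1 on the deposited values and 1 in limma, and 0 in limma with no filter. The rescue effect itself went from 0 to 1 with limma. Between the rescues, limma called 2 in place of 1 with library totals, and in treated cells 1 in place of 2 with no filter. Leaving out each library in turn, with limma, where the lone library of a group is assumed to vary like the others, gave 4 to 5 members called for arsenite in knockout cells, 1 to 2 in the deletion rescue, 0 to 1 between the rescues, 0 to 2 between treated rescues, and differing responses of 3 to 4 for wild-type rescue against knockout, 4 to 4 for deletion rescue against knockout and 0 to 1 between the rescues. Over all genes, limma called 5861 in place of 3011 for arsenite in knockout cells, 2146 in place of 992 in the deletion rescue, and 1823 in place of 705, 2316 in place of 1099 and 21 in place of 52 for the 3 differences in response (wild-type rescue and knockout, deletion rescue and knockout, both rescues). Against treated knockout cells, treated deletion rescue had 6004 genes higher and 5814 lower, and 4320 and 7857 with library totals. No paired analysis was possible because the recovered libraries carry no replicate numbers. Depth limits SP7 in all libraries and SPP1 in the RIP, where 0 to 8 reads were counted.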
